A study of Mus musculus with 4 samples.

Results

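The GATA factor family is described here by the open chromatin at 5 of its genes, Gata2, Gata3, Gata4, Gata5 and Gata6, in mouse colonic organoids. These are 5 of 21631 protein-coding genes on the 19 autosomes and the X chromosome. Members were chosen by name. The values taken for each were the called summits inside the gene or within 1000 bp of it, and the called regions away from gene ends lying nearer to an outer end of that gene than to the end of any other protein-coding gene, at up to 100 kb. All 5 genes were found, with 44 summits in or beside them and 52 regions away from gene ends, which together made 55 separate regions of 113404.

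GATA factors are transcription factors with paired zinc fingers that bind DNA sequences built around the letters GATA. GATA1, GATA2 and GATA3 are known from blood: GATA2 from blood stem cells, mast cells and endothelium, and GATA3 from T helper and other lymphoid cells, although GATA3 also acts in epithelia such as breast, skin and kidney. GATA4, GATA5 and GATA6 are known from heart and endoderm. In the adult gut GATA4 marks stomach and the proximal small intestine and is low or absent in colon, whereas GATA6 is used along the whole intestine, in both crypt and surface cells.

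Organoids were grown from the colonic epithelium of wild-type mice with chronic colitis or of healthy controls, in medium with EGF, Noggin, R-spondin and Wnt. Each was exposed for 24 h to 10 µM T-5224, which inhibits AP-1, a transcription factor of the stress response, or to 0.1% DMSO as vehicle. After freezing and thawing, nuclei were assayed by bulk ATAC-seq, where the transposase Tn5 cuts and tags open DNA. The 4 groups (colitis with DMSO, colitis with T-5224, control with DMSO, control with T-5224) held 1 library each and shared 1 batch label. The sources used here do not give the animals' age. The values are those of 1 peak list for the series, so no group was compared with another and no p-value is given.

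The unit is the authors' fold enrichment at a summit, the pileup of reads or fragments there over an expected background of 7.63 at every base, with 1 added to both. The median region of the whole list had 4.99-fold (25th to 75th percentile, 3.13 to 11.0). Values in brackets are exact Poisson 95% intervals, which cover counting error only, and the lowest pileup called was 17. In a bulk library a site open in few cells and a site weakly open in every cell cannot be told apart. The labelled cell type was checked against marker genes by the strongest summit in the gene or within 1000 bp of it. Of all protein-coding genes, 74.5% had such a summit. All 7 markers of colonic epithelium had one, from 24.5-fold at Krt20 to 59.1-fold at Krt8. Of 4 leukocyte markers, 2 had one, Spi1 with 25.7-fold and Itgam with 6.96-fold, while Ptprc and Cd3e had none. Of 4 erythroid and mast cell markers only Klf1 had one (36.8-fold), and Gata1, Hbb-bt and Cpa3 had none. All 3 endothelial markers had one, between 3.48 and 8.35-fold, as did all 4 markers of fibroblasts and muscle, between 3.01 and 16.3-fold. Of 4 markers of small intestine and stomach, 3 had one, Atp4a with 26.4-fold, Gata4 itself with 13.7-fold and Sis with 3.59-fold, while Lct had none. The part of such cells in the values below was not tested.

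Every member had at least 1 summit in the gene or within 1000 bp of it, as did 74.5% of all protein-coding genes, but their strength fell into separate levels. Gata6 (45.2-fold, 40.8 to 49.9) and Gata3 (39.7-fold, 35.6 to 44.1) were the strongest. Gata4 followed with 13.7-fold (11.3 to 16.4), Gata2 with 8.23-fold (6.44 to 10.4) and Gata5 with 5.10-fold (3.72 to 6.83). Thus 3 of 5 members passed 10-fold, against 58.7% of protein-coding genes, and 2 of 5 passed 20-fold, against 47.1%. The share of protein-coding genes with a lower value was 84.8% for Gata6, 79.0% for Gata3, 45.7% for Gata4, 38.8% for Gata2 and 33.1% for Gata5. The median over the members, 13.7-fold, was below the 17.4-fold median over all protein-coding genes.

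Counting intervals placed Gata6 above every member except Gata3. The pileup at the strongest Gata6 summit was 389 and that of Gata4 was 117, a ratio of 3.32 (exact binomial 95% interval 2.70 to 4.12). The ratio to Gata2, the other blood member examined, was 5.56 (4.30 to 7.27), and that to Gata5 was 9.05 (6.59 to 12.7). Against Gata3 the ratio was 1.14 (0.984 to 1.32), so those neighbours in the order were not separated beyond counting error. Lower in the order, Gata4 over Gata2 was 1.67 (1.23 to 2.28) and Gata2 over Gata5 was 1.63 (1.10 to 2.44). By this measure the split did not follow the known division of the family. A blood member stood beside Gata6, and 2 members of the endoderm and heart branch stood below the median gene. The Gata3 summit lay 1082 bp upstream of its RefSeq start, and the value at that start was 8.70-fold. That of Gata6 lay 27 bp inside its outer end.

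**Figure D1:**
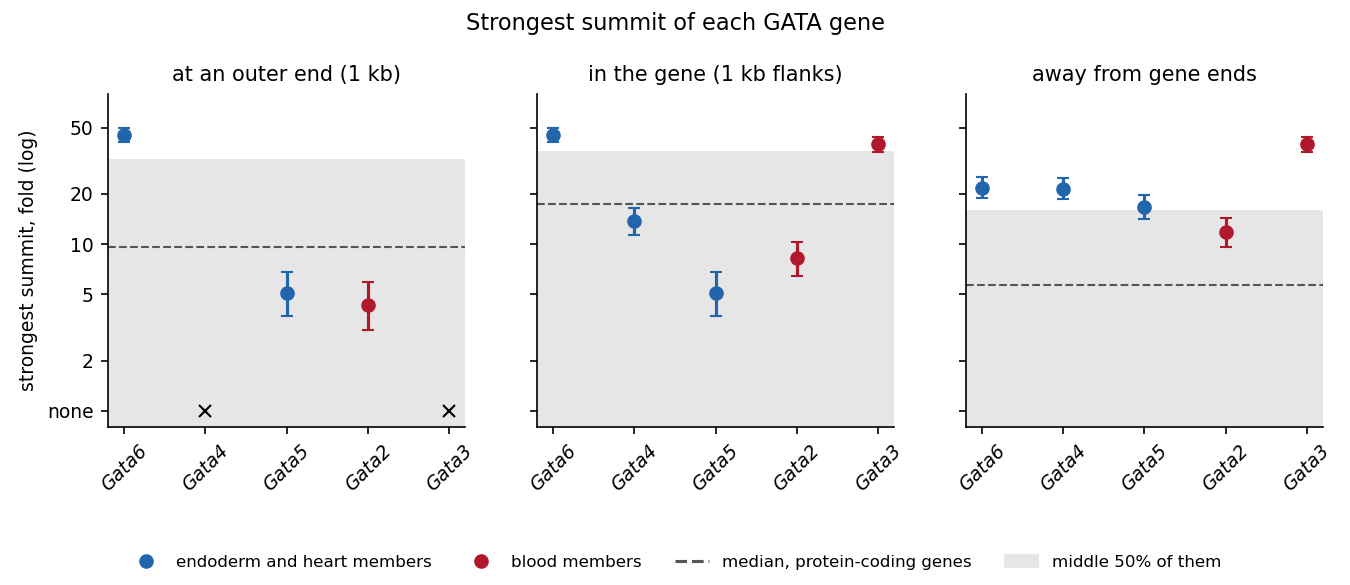
Fold enrichment (log axis) of the strongest summit of each gene within 1 kb of an outer end (left), in the gene or within 1 kb of it (middle) and among regions away from gene ends (right), with exact Poisson 95% intervals for counting error. Crosses mark genes without a summit, the dashed line is the median of all protein-coding genes and the grey band their middle range. Gata6 is highest at an outer end, Gata6 and Gata3 are highest in the gene, and the Gata3 point on the right is the same summit as in the middle.

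Gata6 (NCBI Gene 14465, chromosome 18, 11052510 to 11085636 on GRCm38, 33127 bp) was the member with a strong summit at its outer end. Within 1000 bp of an outer end, 3 of 5 members had a summit, against 64.3% of protein-coding genes. Gata6 had 45.2-fold there, Gata5 had 5.10-fold and Gata2 had 4.29-fold (3.04 to 5.89), while Gata3 and Gata4 had none. The ratio of Gata6 to Gata2 by this measure was 10.8 (7.67 to 15.7). Outer ends miss RefSeq starts that lie inside the bounds. At such starts Gata2 had 8.23-fold and Gata3 had 8.70-fold. The Gata6 summit lay 27 bp inside its outer end, where the gene overlaps the end of Gata6os, a divergent noncoding gene also named LncGata6 that has been studied in intestinal stem cells. The summit therefore counts for both genes, and the reads of one cannot be separated from those of the other.

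That summit belonged to one unbroken region of 8122 bp, from 11047869 to 11055990, with 12 summits. Only 66 of 113404 regions were as wide or wider. It ran 4.64 kb outside Gata6, along Gata6os, and 3.48 kb into Gata6. Next to the main summit stood one of 21.7-fold (18.7 to 25.01) at 705 bp inside the gene. The 7 summits over Gata6os and outside Gata6 ranged from 2.43 to 11.1-fold, with the highest at 946 bp and one of 10.3-fold at 3911 bp from the Gata6 end. The other 3 inside Gata6, at 1923, 2522 and 3050 bp, had 4.17, 7.07 and 4.41-fold. For comparison, the widest region touching each other member was 2130 bp at Gata3, 1343 bp at Gata4, 1330 bp at Gata5 and 1011 bp at Gata2.

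Further inside Gata6 the strongest site was a separate region of 907 bp, from 11060700 to 11061606, 8.59 kb from the end, with 21.8-fold (18.8 to 25.1). Between it and the wide region lay sites of 2.55, 5.56 and 6.72-fold. Near the far end of the gene stood sites of 2.43-fold and, at 3.40 kb from that end, 6.96-fold. Of the 12 summits counted in the gene with its flanks, 4 passed 10-fold, more than in any other member: Gata3 and Gata4 had 1 each, and Gata2 and Gata5 had none. All of these Gata6 summits but the 21.8-fold one belonged to the single region of 8122 bp, and the one of 11.1-fold lay outside Gata6, over Gata6os. Counted by region, 12 of the 55 separate regions of the 5 members passed 10-fold, against 27.1% of all regions in the list.

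Gata4 (NCBI Gene 14463, chromosome 14, 63198914 to 63271712, 72799 bp) had 9 summits, all of them well inside the annotated gene. The strongest, 13.7-fold (11.3 to 16.4), was in a region from 63232537 to 63233273, 34.0 kb from the nearer outer end. A region from 63255615 to 63256339 reached 8.23-fold (6.44 to 10.4), and one at 8.41 kb from an end had 5.56-fold (4.12 to 7.36). The widest, of 1343 bp from 63244996, had 4.75 and 3.59-fold, in the range of the median region of the list. The remaining ones were between 2.43 and 4.29-fold. No summit lay within 1000 bp of either outer end. The table of genes gives only outer bounds, so a value at an internal start site of Gata4 can be read only among these summits.

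Gata5 (NCBI Gene 14464, chromosome 2, 180325088 to 180335503) had 4 summits and the lowest maximum of the family. Of these, 3 lay in a single region from 180333813 to 180335142 with 5.10, 4.52 and 3.25-fold, and the fourth stood alone with 4.17-fold. The region covered the RefSeq start of Gata5 at 180334679, with the strongest summit 82 bp downstream of it. The whole region also lies over the noncoding gene Gata5os, so its summits count for both genes.

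Gata3 (NCBI Gene 14462, chromosome 2, 9857078 to 9887953) carried its strongest summit beside the start of its RefSeq transcript, not at an outer end. The promoter table used here places the start at 9878600 on the minus strand, inside the outer bounds. A region of 2130 bp from 9877906 to 9880035 spanned it, with 4 summits. At the start itself, 46 bp downstream, the value was 8.70-fold (6.85 to 10.9). The summit of 39.7-fold stood 1082 bp upstream. Between them lay one of 6.38-fold, 489 bp upstream, and downstream of the start stood summits of 6.14-fold at 278 bp and 3.59-fold at 1010 bp. Further summits, all of 3.71-fold or less, followed upstream over the noncoding genes 4930412O13Rik and 9230102O04Rik. The family's second highest value is therefore that of a site just over 1 kb from a promoter, and the value at the promoter itself is within the interval of Gata2.

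Gata2 (NCBI Gene 14461, chromosome 6, 88193891 to 88207032) had 10 weak summits in 6 regions. It has 2 RefSeq starts on the plus strand, of which the upstream one is known as the start used in blood-forming and neural cells and the downstream one as used more widely. Around the upstream start, at 88193891, no summit lay within 250 bp, and the nearest, 309 bp downstream, had 4.29-fold. At the downstream start, at 88198664, a summit of 8.23-fold (6.44 to 10.4) stood 26 bp upstream. The other summits in Gata2 had between 2.32 and 4.17-fold. The intervals at the 2 starts did not overlap. All 3 members with a RefSeq start had a summit within 1000 bp of one, against 64.5% of protein-coding genes in the promoter table. The region at the downstream start also reaches an end of the noncoding gene Gm38708.

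Because these starts lie under called regions and differ in value, the 250 bases before each are shown, 5′ to 3′ on the gene's strand, from RefSeq on GRCm38.p6 (3 of the 5 members matched the table, and 17274 of 21631 protein-coding genes). Positions are chr6:88193641-88193890 and chr6:88198414-88198663 (plus strand) for Gata2, chr2:9878601-9878850 (minus strand) for Gata3 and chr2:180334680-180334929 (minus strand) for Gata5. Capitals mark the GC box GGGCGG and the CCAAT box, each searched on both strands, so that ATTGG is CCAAT on the other strand.
Gata2 upstream start: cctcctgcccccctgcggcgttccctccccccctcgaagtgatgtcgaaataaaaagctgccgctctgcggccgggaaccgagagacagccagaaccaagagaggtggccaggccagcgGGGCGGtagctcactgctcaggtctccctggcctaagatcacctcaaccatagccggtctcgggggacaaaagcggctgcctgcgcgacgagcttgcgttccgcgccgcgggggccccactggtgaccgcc
Gata2 downstream start: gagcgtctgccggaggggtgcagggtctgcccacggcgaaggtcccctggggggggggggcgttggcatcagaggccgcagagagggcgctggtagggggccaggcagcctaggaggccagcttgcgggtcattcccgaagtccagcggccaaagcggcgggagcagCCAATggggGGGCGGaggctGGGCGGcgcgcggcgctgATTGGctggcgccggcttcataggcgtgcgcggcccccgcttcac
Gata3 start: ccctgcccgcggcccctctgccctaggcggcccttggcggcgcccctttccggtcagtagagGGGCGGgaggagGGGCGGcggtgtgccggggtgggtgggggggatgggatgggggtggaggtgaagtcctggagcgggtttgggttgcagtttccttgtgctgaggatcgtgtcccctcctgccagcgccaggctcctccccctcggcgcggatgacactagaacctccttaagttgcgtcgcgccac
Gata5 start: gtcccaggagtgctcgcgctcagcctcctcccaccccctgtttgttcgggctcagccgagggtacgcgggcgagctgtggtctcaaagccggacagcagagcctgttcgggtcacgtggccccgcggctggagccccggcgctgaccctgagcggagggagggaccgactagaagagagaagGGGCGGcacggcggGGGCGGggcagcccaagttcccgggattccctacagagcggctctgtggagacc

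All 4 windows were rich in G and C, with 67.2% and 74% at the upstream and downstream Gata2 starts, 70% at Gata3 and 70% at Gata5, where the median of 21045 promoter windows was 55.6%. Each held a GC box, found in 43.1% of windows of this length, with 1 at the upstream and 2 at the downstream Gata2 start and 2 each at Gata3 and Gata5. A CCAAT box, found in 35.6% of windows, occurred at the downstream Gata2 start alone, 83 bases before it and again, on the other strand, 45 bases before it. The matches did not overlap. None of the 4 windows held AGATAA (8.84% of windows) or TGATAA (6.84%), forms of the site that GATA factors bind, or the AP-1 site TGACTCA, which reads TGAGTCA on the other strand (4.09%). These matches describe letters in a window and say nothing on binding.

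**Figure D2:**
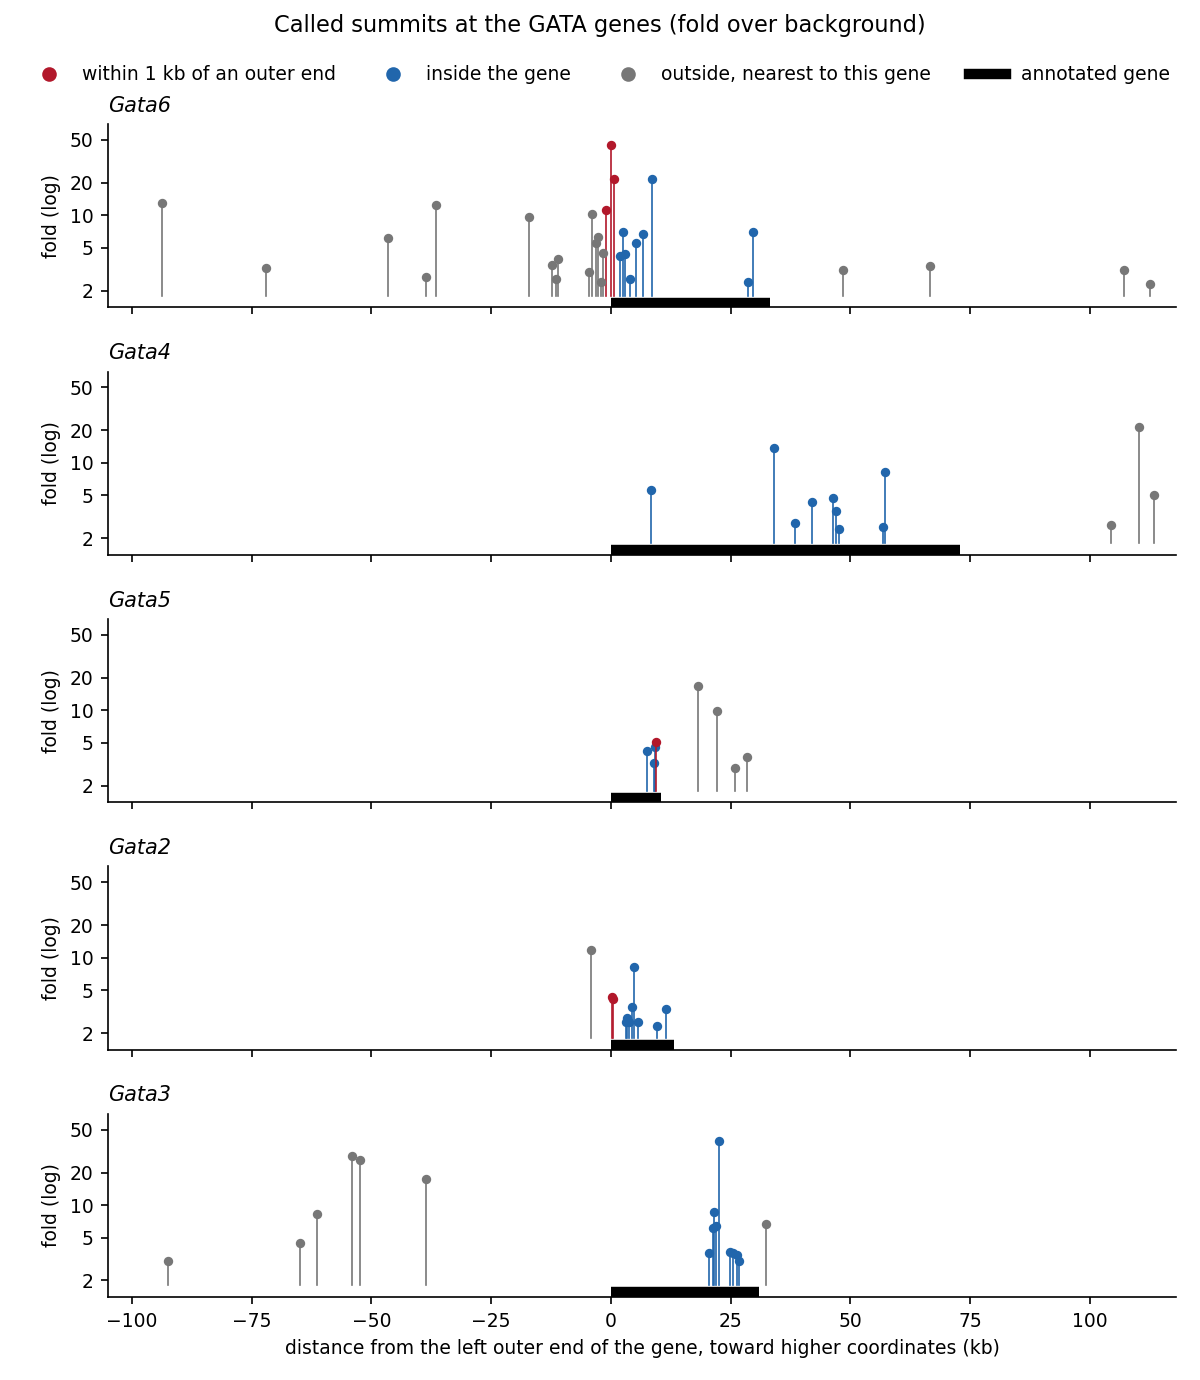
Each called summit in or nearest to the 5 GATA genes, placed by its distance in kb from the gene's left outer end (black bar, annotated gene), with the fold enrichment on a log axis; regions outside the gene are shown by their strongest summit, except that all summits of the 8122 bp Gata6 region are drawn. Gata6 and Gata3 reach 45.2 and 39.7-fold, and the strongest site outside the gene ranges from 11.8-fold at Gata2 to 28.3-fold at Gata3.

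Away from protein-coding gene ends every member had at least 1 assigned region, against 69.7% of protein-coding genes. Gata6 had 19, Gata3 had 12, Gata4 had 10, Gata2 had 6 and Gata5 had 5, where the median gene had 2. At least 10 were found at 3 of 5 members, against 11.9% of protein-coding genes. Regions inside a gene but over 1000 bp from any end count here too. So 5 of the Gata2, 5 of the Gata3, 7 of the Gata4, 1 of the Gata5 and 6 of the Gata6 regions are among those already described. They include the regions at the downstream Gata2 start and at the Gata3 start. All 5 members had an assigned region above 10-fold, against 35.9% of protein-coding genes. Regions are placed by distance, and contact of a region with the gene it is given to was not measured.

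The strongest regions outside the gene body were those of Gata3. A pair of them stood 53.98 and 52.3 kb beyond its end at lower coordinates, with 28.3-fold (24.9 to 32.1) at 9802714 to 9803713 and 26.1-fold (22.8 to 29.7) at 9804167 to 9805684. Another, at 9817785 to 9819133 and 38.6 kb away, had 17.6-fold (14.9 to 20.6), and one at 61.5 kb had 8.23-fold. No annotated gene covers any of these 4 summits, and they lie downstream of Gata3, given its strand. The other 7 regions of Gata3 had 3.01 to 6.72-fold. The next protein-coding gene on that side, Celf2, is 2461 kb away.

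For Gata6, 13 of 19 regions lay outside the gene, 9 on the side of Gata6os and 4 on the other side. The strongest outside the gene was at 10958402 to 10959076, 93.7 kb away inside the noncoding gene Gm35814, with 13.1-fold (10.8 to 15.7). It was followed by 12.4-fold (10.2 to 15.0) at 11015438 to 11016375, 36.4 kb away, and 9.74-fold (7.78 to 12.04) at 11035074 to 11035825, 17.03 kb away. On the other side none passed 3.36-fold. Both protein-coding neighbours, Mib1 and Rbbp8, are far off, at 234 and 548 kb. By its strongest region away from gene ends Gata6 (21.8-fold, inside the gene) was not separated from Gata4 (ratio 1.01, 0.8205 to 1.25) and was below Gata3 (0.548, 0.456 to 0.657). The Gata3 value there is the 39.7-fold summit of the region that spans its RefSeq start, which lies inside the outer bounds. The strongest Gata3 region outside the gene had 28.3-fold (24.9 to 32.1).

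The strongest region of Gata4 away from gene ends lay outside the gene, at 63308621 to 63309560, 37.4 kb beyond it, with 21.6-fold (18.6 to 24.9). Its summit lies over Gm4151, an annotated noncoding transcript, within 1000 bp of that gene's end. A weaker one inside Gm4151 had 4.99-fold. For Gata5 the strongest was 16.7-fold (14.1 to 19.6) at 180343020 to 180343854, 7.85 kb from the gene and inside the noncoding gene Gm52543, above the 5.10-fold of Gata5 itself, and the next had 9.74-fold (7.78 to 12.04) at 11.8 kb, near an end of Gm52543. The remaining 2 outside Gata5 had 3.71 and 2.90-fold. For Gata2 a single region lay outside the gene, at 88189404 to 88190212, 4.11 kb from the upstream end inside Gm38708, with 11.8-fold (9.65 to 14.3). Its interval overlapped that of the strongest summit in Gata2, whereas at Gata5 the site outside the gene was higher than any in the gene beyond counting error.

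Genes with distant neighbours can be given more regions. The territory of a gene, the bases nearer to its ends than to those of another protein-coding gene and within 100 kb, was 233 kb for Gata6, 144 kb for Gata3, 126 kb for Gata4, 88.4 kb for Gata5 and 65.1 kb for Gata2, where the median gene had 45.8 kb. Per 100 kb of territory the members came close together, with 9.22 regions at Gata2, 8.32 at Gata3, 8.15 at Gata6, 7.95 at Gata4 and 5.66 at Gata5. The median over all protein-coding genes was 3.81. Called regions covered 7.45% of the Gata6 territory, 7.24% of that of Gata2, 7.11% of Gata3, 4.64% of Gata4 and 4.37% of Gata5, against a median of 4.22%. So Gata6 had the largest number of regions and the most called sequence (17.4 kb, against 10.2 kb at Gata3 and 5.84 kb at Gata4), while its covered share was close to those of Gata2 and Gata3. With territories limited to 50 kb the share was 11.7% at Gata6, 7.24% at Gata2 and 6.54% at Gata3, so that closeness holds for the limit of 100 kb and not for the shorter one.

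**Figure D3:**
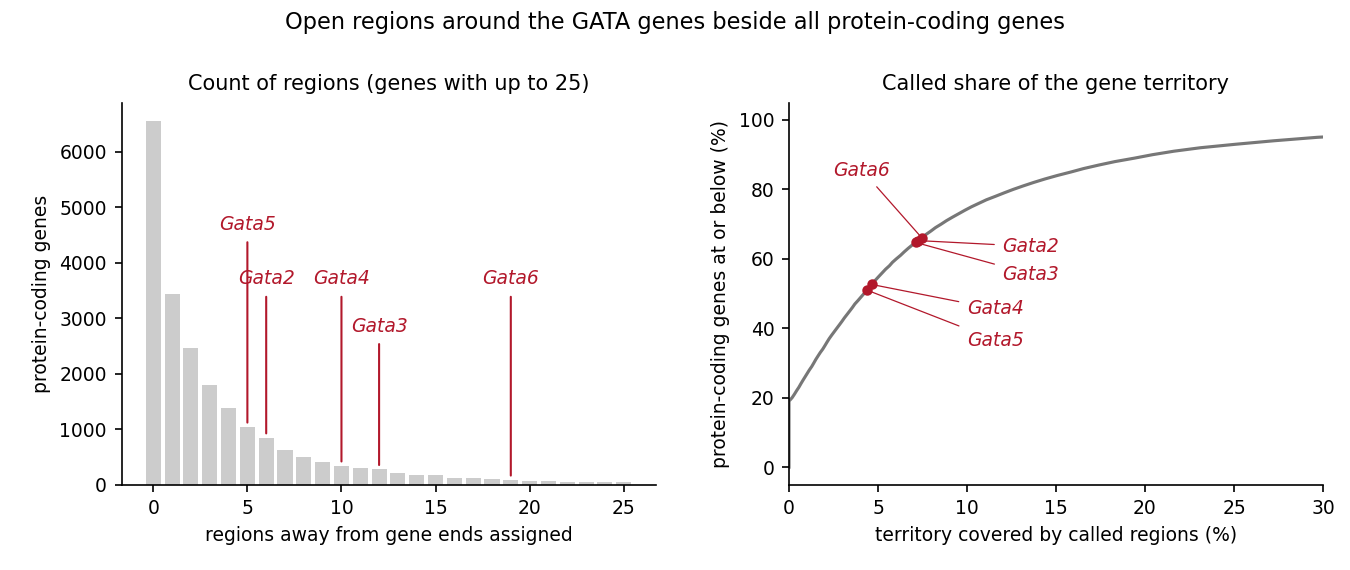
Left, number of protein-coding genes by the count of regions away from gene ends assigned to them (genes with up to 25 shown), with the 5 members marked from 5 at Gata5 to 19 at Gata6. Right, share of protein-coding genes at or below each percentage of territory covered by called regions, with the members between 4.37% and 7.45%, all above the median gene.

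Gata1, the erythroid member on the X chromosome, had no summit in the gene or within 1000 bp and no called base in its territory. It was one of 10 other genes with a GATA-type zinc finger. Of these, 8 had a summit in the gene or within 1000 bp and 5 passed 10-fold, with a median of 16.4-fold. Over all protein-coding genes the values were 74.5%, 58.7% and 17.4-fold. The strongest were Gatad2a (84.1-fold, 78.1 to 90.4) and Gatad2b (68.2-fold, 62.8 to 73.9), subunits of the nucleosome remodelling and deacetylase complex, and besides Gata1 only Zglp1, a germ cell factor, had none. All 6 cofactors and partners of GATA factors had a summit, 4 of them above 10-fold, with a median of 12.4-fold, against the same 74.5%, 58.7% and 17.4-fold. Zfpm1, which encodes the cofactor FOG1 that binds GATA factors directly, had 77.2-fold (71.5 to 83.3), higher than any member, and Ldb1, a bridging protein of GATA complexes, had 31.2-fold (27.6 to 35.1).

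Of 8 endoderm factors that act beside GATA factors in gut, 8 passed 10-fold, against 58.7% of protein-coding genes, with a median of 32.6-fold and the lowest, Foxa2, at 16.9-fold. Foxa1 (68.4-fold, within 1000 bp of an end of Ttc6 and not of Foxa1) and Hnf4a (57.3-fold) were the highest, both above Gata6. Among 5 heart factors that work with GATA4 and GATA6, 4 had a summit, against 74.5% of protein-coding genes. Only Mef2c passed 10-fold, with 30.7-fold (27.1 to 34.6). The next was Nkx2-5 with 3.36-fold, and Tbx5 had none. Of 4 genes of the small intestine known to depend on GATA4, 1 had a summit, against the same 74.5%. It was Slc10a2, the ileal bile acid transporter, with 34.9-fold (31.1 to 39.1), a gene that GATA4 is known to hold down in the proximal intestine. Lct, Fabp1 and Fabp6 had none, and the list was not divided by the direction of the GATA4 effect. Of the genes linked to GATA6 in colon tumours, Lgr5, the stem cell marker, had 11.8-fold (9.65 to 14.3) and Bmp4, a growth factor gene, had 3.13-fold (2.09 to 4.53).

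**Figure D4:**
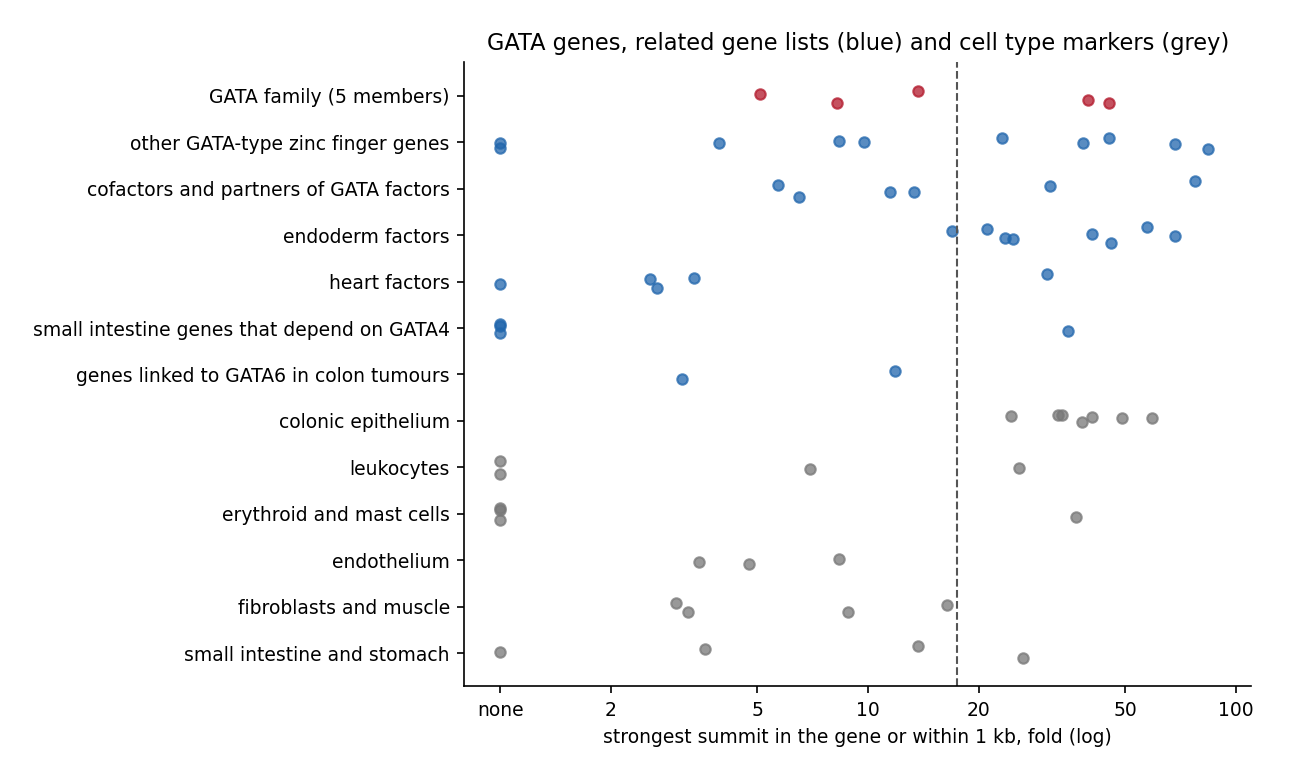
Strongest summit in the gene or within 1 kb of it (fold, log axis; none where no summit was called), 1 point per gene, for the 5 GATA members (red), 6 related gene lists (blue) and 6 sets of cell type markers (grey), with the median protein-coding gene as a dashed line. The members spread from 5.10 to 45.2-fold, while the 8 endoderm factors lie between 16.9 and 68.4-fold.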

How the data were processed

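Bulk ATAC-seq was performed on 4 organoid libraries, 1 per group, and 1 peak list was deposited for the series. Per the submitters' processing notes, Bowtie2, MACS2 and mm10 were used, with no version given. The sources used here do not state thresholds, the treatment of duplicates, which libraries entered the peak call or their depth. The deposited fold enrichment is a linear ratio at the summit, and the deposited score equals the −log10 q multiplied by 10 and cut to a whole number in 100% of peaks. In the authors' deposited table the lowest −log10 p was 3.02 and the lowest −log10 q was 1.51.

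Fold values were whole numbers over 1 constant in 100% of peaks (tolerance 0.01), which gave pileups and exact Poisson intervals. A single background means that copy number and mappability were not divided out. Gene bounds without strand came from NCBI genes (GRCm38.p6, which shares its coordinates with mm10), and starts and sequences from the RefSeq promoter table. Each region was placed by its strongest summit, and was at a gene end within 1000 bp of a protein-coding one. Functions were tested on simulated data (Python 3.11.15, pandas 2.3.3, scipy 1.17.1). Window, distance, gene class, peak threshold and joining of regions were varied.

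Members, lists and comparisons were chosen with earlier results of these data known. All members were named, with genes of each list chosen by strength (the 2 strongest and those without a summit). The GC and CCAAT boxes, the RefSeq starts and the pairs of members without Gata6 were chosen after seeing the data. A planned comparison of protein sequences was not made. One further leukocyte marker is not reported here.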

Additional observations from a re-analysis of the deposited data

How the results depend on the processing

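No paired analysis was possible because each group holds 1 library and the peak list gives no value for a single library; for the same reason no library could be left out. Gata6 kept the highest value under all settings tried for the strongest summit at an outer end, the strongest summit in the gene, the number of summits and the share of territory covered. For the number of regions away from gene ends it kept it in 7 of 8 settings, the exception being assignment to the nearest end of a gene of any class, where Gata4 had 7 and Gata6 had 6. Among peaks of −log10 q of at least 10 only, Gata6 had 8 such regions in place of 19, against 7 each at Gata3 and Gata4. By the strongest region away from gene ends Gata6 was highest in 0 of 7 settings, with Gata3 highest in each. For the strongest summit in the gene, the ratio of Gata6 to Gata3 was 1.14 (0.984 to 1.32) under each setting, not separated beyond counting error.

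With a window of 500 bp the median over members of the strongest summit at an outer end fell from 4.29-fold to 0, since the Gata2 summit lay 309 bp but the Gata5 summit more than 500 bp from an outer end. With peaks of −log10 q of at least 10 only, the median number of summits was 4 in place of 9 and the median share of territory covered was 4.32%. The median number of regions away from gene ends was 6 in place of 10 when assigned within 25 kb, and 6 when assigned to the nearest end of a gene of any class, where the median of their strongest fold was 11.8. In that setting Gata5 had none, the ratio of Gata6 to Gata4 was 0.504 and that of Gata6 to Gata2 turned to 0.584, because the 21.8-fold region in Gata6 is nearer to an end of Gata6os. The ratio of Gata6 to Gata4 by this measure was 2.67 within 25 kb and 1.60 when regions at ends of genes of any class were left out, a setting added after the data were seen. Both drop the 21.6-fold region at Gm4151, and the limit of 25 kb also drops the 13.7-fold region in Gata4. At RefSeq starts, also added later, Gata2 had 8.23-fold, Gata3 8.70-fold and Gata5 5.10-fold; within 2000 bp Gata3 had 39.7-fold. The other 49 of 59 alternative values of medians and ratios stayed within 1.5 times (medians) or kept their direction and whether the interval held 1 (ratios). Of single members' values, 94 of 123 stayed within the counting interval (folds) or within 1.5 times (counts and shares) of those reported. Sites with the lowest pileup of 17 have an interval of 9.90 to 27.2, so summits under about 3-fold cannot be ranked.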

Other observations

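Joining regions whose edges lay within 12.5 kb placed Gata6 in a cluster of 9 regions over 26.5 kb, and 90.7% of 31292 clusters held fewer. Gata2 lay in a cluster of 7 regions over 16.2 kb, and 86.9% of clusters held fewer. Gata3 lay in one of 6 over 12.5 kb and Gata5 in one of 6 over 21.5 kb, where that share was 83.7%. None of these 4 clusters reached another protein-coding gene. For Gata4 the largest cluster that touched the gene held 36 regions over 115 kb, and 99.5% of clusters held fewer. But that cluster also covered Ctsb, Fdft1 and Neil2 and ended at 63207498, before the stronger Gata4 sites.

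Regions outside the gene were nearly all on one side at Gata3, Gata4 and Gata5, and Gata2 had a single one. Only bases nearer to a gene than to its neighbour can be assigned, so the room on each side differed. The part of that room in the pattern was not tested, and no share over all genes was computed. At Gata4 all 3 and at Gata5 all 4 lay toward higher coordinates, at Gata3 6 of 7 lay toward lower coordinates, and the single one at Gata2 lay toward lower coordinates. At Gata6 they were split 9 to 4, although both sides had at least 100 kb without another protein-coding gene. At Gata4 and Gata2 the gap to the next protein-coding gene on the empty side was short, 4.76 kb to Neil2 and 15.2 kb to Dnajb8. It was 35.2 kb to Rbbp8nl at Gata5, whose regions on the other side lay 7.85 to 18.04 kb away, and 26.6 kb to Taf3 on the side of Gata3 with 1 region.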
